A study of Mus musculus with 2 samples.

Results

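The endothelin system consists of 3 secreted peptides, their receptors and the membrane proteases that process them. The genes examined were the ligand genes Edn1, Edn2 and Edn3, the receptor genes Ednra and Ednrb, the endothelin converting enzyme genes Ece1 and Ece2, and Ecel1, which encodes a related protease. They were found by taking every probe set of a mouse Affymetrix array that names exactly 1 gene in the platform's annotation, that gene being one of these 8. Of the 8 genes, 7 had such a probe set, 15 probe sets in all, out of 18194 genes with 34958 probe sets. Ednra was not analysed here. No probe set named a member together with another gene.

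Mouse embryos at E10.5 were the source of the RNA, which was taken from the otocyst, the epithelial vesicle from which the inner ear develops. All embryos were heterozygous for the transgene Tg(ETAR-EGFP)14Imeg, so both populations carry it, and ETAR is the usual protein name for the product of Ednra. The otocysts were dissociated with trypsin and sorted by fluorescence into EGFP-positive cells (1 array, called the positive library), labelled as mainly from the ventral and dorsomedial otocyst, and EGFP-negative cells (1 array, called the negative library), with the dorsolateral otocyst labelled as lacking EGFP. The promoter fragment of the transgene, its insertion site and the number of embryos pooled are not given in the sources used here.

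Endothelins are made as long precursors that furin-type proteases cut to inactive big endothelins, and converting enzymes cut these to the active peptides. Ednra, the type A receptor, binds endothelin-1 and endothelin-2 with high affinity and endothelin-3 weakly, whereas Ednrb, the type B receptor, binds all of them alike. In the embryo, signalling from Edn1 to Ednra patterns the neural crest cells of the pharyngeal arches. Signalling from Edn3 to Ednrb is needed by the crest cells that give rise to melanocytes and enteric neurons, and Ednrb is also expressed by pigment cells of the inner ear.

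The values are MAS5 signals, which are linear brightness values in arbitrary units with the same trimmed mean on both arrays. A signal was read as above the floor when it exceeded the 40th percentile of its array, 12.4 in the negative and 10.4 in the positive library. Signals of different probe sets are not comparable as levels, because probes differ in brightness, so each fold compares a probe set only with itself across the libraries. Summed signals of a gene list are given as a description only, because the brightest probe sets weigh most in them. A gene was represented by its brightest probe set, and a gene was counted as past 2-fold in a library when its signal there was at least 2 times that in the other. Each population has a single array, so there is no spread between samples. No p-value or SD over samples can be given, and every difference describes these 2 libraries.

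Of the 7 genes with probe sets, 6 were above the floor in at least 1 library and Edn1 was not. Ednrb and Edn3 were past 2-fold in the negative library, Ecel1 was past 2-fold in the positive library, and Ece1 and Ece2 were within 2-fold. Edn2 had 1 side under the floor and a bound that does not reach 2-fold, so it is undetermined. Among all 13363 genes above the floor, 7.63% were past 2-fold in the negative library and 2.9% were past 2-fold in the positive library. The median log2 ratio of EGFP-positive over EGFP-negative was -0.46 over the 6 genes and 0.0032 over all genes. The value of -0.46 is an upper limit, since Edn2 entered it at its bound.

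**Figure D1:**
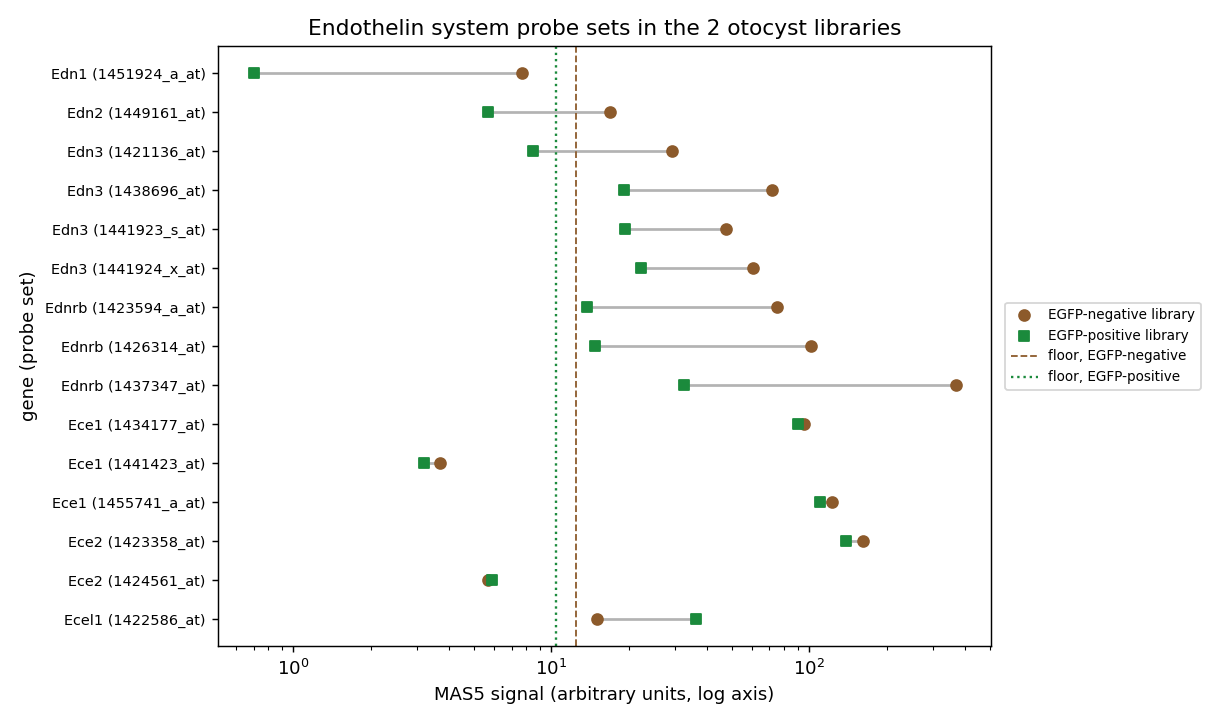
MAS5 signal (x axis, arbitrary units, log scale) of each of the 15 probe sets of the endothelin genes (y axis) in the EGFP-negative library (brown circles) and the EGFP-positive library (green squares). Grey lines join the values of 1 probe set, and vertical lines mark the floor of each library. All probe sets of Ednrb and Edn3 lie further right in the EGFP-negative library, Ecel1 lies further right in the EGFP-positive library, and the Ece1 and Ece2 pairs nearly coincide.

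The sequences just before the annotated start of the 3 genes past 2-fold are shown, since Ednrb and Edn3 were higher in one library and Ecel1 in the other. Each is the 250 bases upstream of 1 RefSeq start in GRCm38.p6, read 5′ to 3′ on the gene's strand. Capitals mark matches on either strand to CANNTG, the E-box bound by basic helix-loop-helix factors, and to ACAANG, a core sequence bound by SOX factors. The Ednrb window is chr14:103843702-103843951 on the minus strand, the Edn3 window is chr2:174760369-174760618 on the plus strand, and the Ecel1 window is chr1:87156357-87156606 on the minus strand.
Ednrb: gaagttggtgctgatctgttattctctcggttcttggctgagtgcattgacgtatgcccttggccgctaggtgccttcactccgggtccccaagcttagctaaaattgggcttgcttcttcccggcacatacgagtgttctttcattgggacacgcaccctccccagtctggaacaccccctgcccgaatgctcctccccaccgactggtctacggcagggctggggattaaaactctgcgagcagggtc
Edn3: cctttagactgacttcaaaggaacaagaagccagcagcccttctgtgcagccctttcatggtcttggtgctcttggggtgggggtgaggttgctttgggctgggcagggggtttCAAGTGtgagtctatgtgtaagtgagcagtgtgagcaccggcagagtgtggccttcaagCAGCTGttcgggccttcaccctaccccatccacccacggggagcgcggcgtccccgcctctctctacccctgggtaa
Ecel1: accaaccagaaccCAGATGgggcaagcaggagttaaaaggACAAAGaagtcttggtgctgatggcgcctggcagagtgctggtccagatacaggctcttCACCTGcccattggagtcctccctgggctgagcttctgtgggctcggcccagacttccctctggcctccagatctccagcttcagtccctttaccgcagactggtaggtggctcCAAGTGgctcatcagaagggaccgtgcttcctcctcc

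The Edn3 window held 2 E-box matches, which begin 136 and 77 bases before the start, and no SOX match. The Ecel1 window held 3 E-box matches, which begin 237, 151 and 37 bases before the start, and 1 SOX match at 210. The Ednrb window held neither. Such matches are frequent, since 66.0% of 27025 promoter windows of this length held CANNTG and 36.6% held ACAANG. None of these windows matched AGATAA, which blood factors such as Gata1 bind and which 10.3% of windows held. Nor did they match GGGCGG, the GC box, found in 32.9% of windows, or TGANTCA, the site of the AP-1 factors, found in 6.87%. No motif searched was thus found in both the Ednrb and the Edn3 window. A match describes letters only, and no binding was measured.

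Edn3, the ligand gene whose product acts through Ednrb in crest-derived cells, was higher in the negative library on each of its 4 probe sets. Its brightest probe set (1438696_at) had a signal of 71.4 in the negative and 19.1 in the positive library, 3.74-fold higher in the former, a log2 ratio of -1.90. The probe set 1441924_x_at had 60.6 against 22.3, 2.72-fold higher, and 1441923_s_at had 47.6 against 19.2, 2.48-fold higher. The fourth, 1421136_at, had 29.4 in the negative library and 8.5 in the positive library, where it was under the floor, so that it was at least 2.83-fold higher in the negative library.

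The positive-library signals of Edn3 were near the floor of 10.4 on each probe set. The 3 probe sets with signals above both floors had a mean log2 ratio of -1.55 ± 0.31 (SD between probe sets, n = 3). Probe sets of 1 gene are read from the same RNA on the same array, so this SD is an error of the probes and not of the sample. Over 5640 genes with several probe sets above the floor, the same SD was 0.315, and it was 0.411 in the 950 genes with a mean signal under 50. The suffixes _s_at and _x_at denote probe sets whose probes may also match other transcripts. By its brightest probe set, Edn3 ranked 375 of 13363 genes towards the negative library.

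Edn1 and Edn2, the ligand genes known for vascular and epithelial expression, gave little signal. The Edn1 probe set had 7.7 in the negative and 0.7 in the positive library, under the floor of both libraries, so no fold is given. The Edn2 probe set had 16.9 in the negative library, just above the floor, and 5.7 in the positive library, under it. Edn2 was thus at least 1.62-fold higher in the negative library, a bound that does not reach 2-fold. With the floor at the 20th percentile of each array, 4.5 and 3.5, Edn2 had a log2 ratio of -1.57. Edn1 was then above the floor in the negative library only, with a log2 ratio of -1.14 or lower. Among 27 control probe sets for bacterial transcripts, all dim, the brightest had 9.0 and 12.3 in the negative and positive library. Both Edn1 signals lie under these values, as does the positive-library signal of Edn2. A low MAS5 signal does not show that a transcript is absent.

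Ednrb, the type B receptor gene, differed most of the members measured. Its brightest probe set (1437347_at) had a signal of 368.3 in the negative and 32.7 in the positive library, 11.3-fold higher in the former, a log2 ratio of -3.49. The positive-library signal was thus 91.1% lower. The probe set 1426314_at had 101.3 against 14.7, 6.89-fold higher in the negative library, and 1423594_a_at had 75 against 13.7, 5.47-fold higher.

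All 3 Ednrb probe sets went the same way. The mean log2 ratio over the 3 probe sets was -2.91 ± 0.53 (SD between probe sets, n = 3). This SD is larger than the 0.249 found over 1926 genes with a mean signal above 200 and the 0.328 found over 2764 genes between 50 and 200. The size of the fold therefore depends on the probe set, from 5.47 to 11.3, while each of them is past 4-fold, a limit that 2.53% of all genes reached in this direction. The 2 smaller folds have positive-library signals of 13.7 and 14.7, close to the floor. By its brightest probe set, Ednrb ranked 68 of all 13363 genes, and 36 of the 11682 with signals above both floors. The receptor and its ligand gene Edn3 were higher in the same library. Whether the same cells express both cannot be read from pooled RNA.

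**Figure D2:**
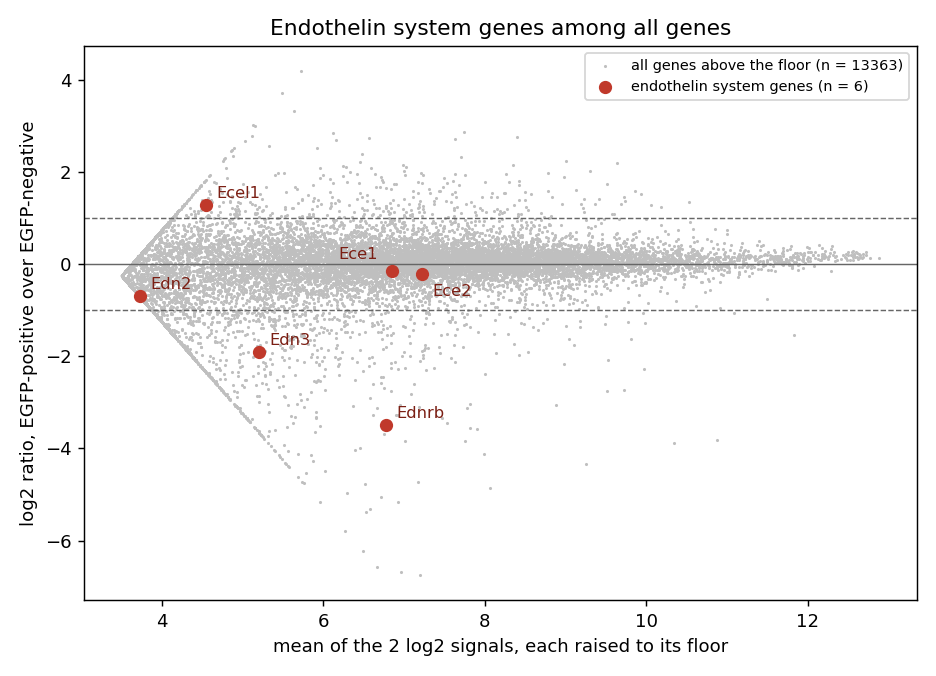
Log2 ratio of EGFP-positive over EGFP-negative signal (y axis) against the mean of the 2 log2 signals, each raised to its floor (x axis), for 13363 genes (grey) and the 6 endothelin genes above the floor (red). Dashed lines mark 2-fold. Ednrb at -3.49 and Edn3 at -1.90 lie under the lower line, and Ecel1 at 1.28 lies above the upper line near the floor. Ece1 and Ece2 lie between the lines, as does the bound of Edn2, whose log2 ratio is -0.70 or lower.

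The converting enzyme genes were at similar signals in the libraries. Ece1, which encodes the main endothelin converting enzyme of the embryo, had 122.2 in the negative and 109.6 in the positive library on its brightest probe set, a log2 ratio of -0.16. A second probe set had 95.4 against 90.4, a log2 ratio of -0.08, and the third was under the floor of both libraries at 3.7 and 3.2. Ece2, which encodes a converting enzyme with an acidic pH optimum, had 161.2 against 138.2, a log2 ratio of -0.22, and its second probe set was under the floor at 5.7 and 5.9. The 3 Ece1 and Ece2 probe sets above the floor were all slightly higher in the negative library, by 1.06-fold to 1.17-fold. These log2 ratios are smaller than the SD of 0.315 between probe sets of 1 gene. With the arrays centred on the otic epithelium marker list, which shifts the median of all genes by -1.36, Ece1 and Ece2 were at -1.52 and -1.58.

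Ecel1, which encodes a neuronal member of the protease family that is not known to cut big endothelin, went the other way. Its single probe set had a signal of 36.3 in the positive and 15.0 in the negative library, 2.42-fold higher in the former, a log2 ratio of 1.28. The negative-library signal lay just above the floor of 12.4, and no second probe set was there to compare. With the floor at the 60th percentile of each array, 37.5 in the negative and 33.3 in the positive library, the negative-library signal was under the floor, which leaves only a lower bound of -0.05 on the log2 ratio and no direction. With the arrays centred on the otic epithelium marker list it was -0.08, and 1.28 relative to the median of all genes. Of 13363 genes, Ecel1 ranked 212 towards the positive library.

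Other proteases of the family that holds the converting enzymes were read as well. Mme, which encodes neprilysin, an enzyme that breaks down endothelins and other peptides, had 410.5 in the negative and 240.6 in the positive library, 1.71-fold higher in the former. On its other probe set above the floor the log2 ratio was -1.60. Kel, which encodes the Kell protein of red cells, known to cut big endothelin-3 in preference to the others, had 140.8 in the negative and 11.4 in the positive library, the latter no higher than the highest bacterial control. Mmel1 had 12.8 and 13.5, both next to the floor, and Phex was under it at 3.2 and 2.7. The median log2 ratio of the 3 genes above the floor was -0.77. Of the 3 measured genes 1, Kel, was thus past 2-fold in the negative library and none in the positive library. Among all genes, 7.63% and 2.9% were past 2-fold in these directions. Beside Kel, all 7 measured genes of the erythroid marker list were at least 2-fold higher in the same library.

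Genes that carry the signal from endothelin receptors were mostly within 2-fold, as were most of all genes. Of all genes, 7.63% were past 2-fold in the negative and 2.9% in the positive library. Of 21 measured genes for G protein subunits, phospholipases, receptor kinases, arrestins, inositol trisphosphate receptors and RGS proteins, 17 were within 2-fold, 3 were past 2-fold in the negative library and 1 in the positive library. The median log2 ratio was -0.09. The main coupling subunits Gnaq and Gna11 had log2 ratios of -0.09 and 0.11. Plcb1, a phospholipase C gene, had 41.0 in the negative and 13.7 in the positive library, 2.99-fold higher in the former. Arrb1, which encodes an arrestin that binds activated receptors, had 128.9 against 46.6, 2.77-fold higher, and Gnai1, an inhibitory G protein subunit gene, 217.7 against 89.4, 2.44-fold higher. The least different of the 3 Gnai1 probe sets, at -0.60 on the log2 scale, was not past 2-fold. Rgs5, which encodes a brake on G protein signalling, had 49.2 in the positive against 19.4 in the negative library, 2.54-fold higher in the former. Gnaq and Gna11 were named after their values were seen.

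Of the genes that depend on Edn1 and Ednra in the pharyngeal arches, most were near the floor or within 2-fold. Most of all genes were likewise within 2-fold, 7.63% being past it in the negative and 2.9% in the positive library. Of 9 genes, 7 were above the floor, 1 was past 2-fold in the negative library and none in the positive library, and the median log2 ratio was 0.19. The gene past 2-fold was Mef2c, a transcription factor gene, at 97.0 in the negative and 1.5 in the positive library, at least 9.33-fold higher in the former. Dlx5, a homeobox gene that the otocyst expresses in its own right, had 322.2 and 367.6. Dlx3 had 15.8 and 22.4, Barx1 had 17.9 and 11.3, and Gsc had 3.9 and 19.9 in the negative and positive library. Gsc was under the floor in the negative library and thus at least 1.60-fold higher in the positive library. That bound does not reach 2-fold, so Gsc is undetermined. Hand2, a defining target of this pathway in the arches, was under the floor of both libraries at 6.6 and 0.8, and it and Dlx5 were named after their values were seen.

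Genes that act with Edn3 and Ednrb in crest-derived cells lay on both sides. Of 12 measured genes, 7 were past 2-fold in the negative library and 3 in the positive library, with a median log2 ratio of -1.52. Among all genes, 7.63% were past 2-fold in the negative and 2.9% in the positive library. Of the other two, Gfra1 was within 2-fold and Tyr had only a lower bound of 1.27-fold in the negative library, both named after their values were seen. Kitl, the ligand gene of the receptor Kit, had 373.0 in the negative and 38.3 in the positive library, 9.74-fold higher in the former, but its 3 probe sets disagreed in size and the least different lay at -0.95 on the log2 scale. Pax3, a crest transcription factor gene, had 89.7 against 1.8, at least 8.62-fold higher in the negative library. Pmel, a melanosome protein gene, had 147.7 against 19.1, 7.73-fold higher, and Dct, an enzyme gene of melanin synthesis, had 59.6 against 2.2, at least 5.73-fold higher.

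The 3 genes that went the other way were Sox10, Kit and Gdnf, named after their values were seen. Sox10, a transcription factor gene of both neural crest and otic epithelium, had 889.3 in the positive and 403.7 in the negative library, 2.20-fold higher in the former, with the lowest of its 3 probe sets at 0.67 on the log2 scale. Kit, the receptor gene of melanoblasts, had 266.6 against 103.3, 2.58-fold higher in the positive library. Gdnf, which encodes the neurotrophic ligand of the receptor Ret, had 44.0 against 11.2, at least 3.55-fold higher in the positive library. Ret itself, also named after its values were seen, had 126.0 in the negative and 28.9 in the positive library, 4.36-fold higher in the former.

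**Figure D3:**
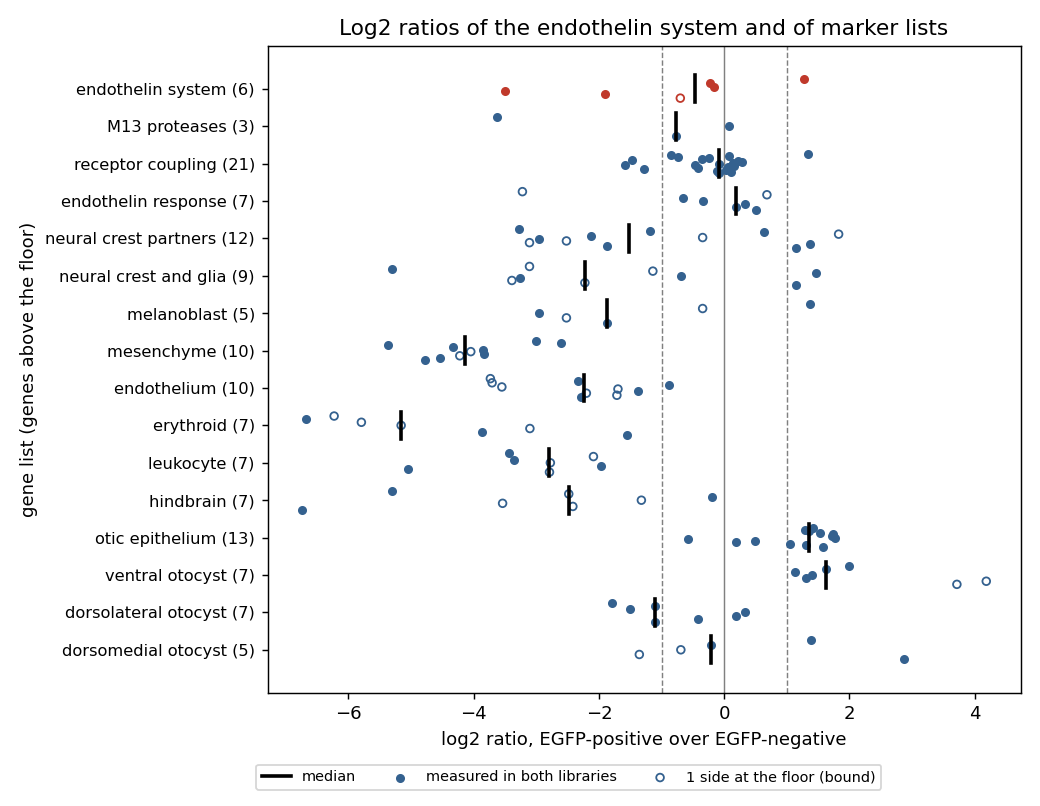
Log2 ratio of EGFP-positive over EGFP-negative signal (x axis) for the measured genes of each list (y axis, number of genes in brackets), with the endothelin genes in red. Filled points are above the floor in both libraries, open points are bounds, black bars are medians and dashed lines mark 2-fold. The medians of the mesenchyme (-4.13), blood, endothelium, hindbrain, crest and dorsolateral otocyst (-1.10) lists lie left of 0. Those of otic epithelium (1.36) and ventral otocyst (1.62) lie right of it, and the endothelin genes span both sides.

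Many markers of non-epithelial cells lay on the side of Ednrb and Edn3. So did the dorsolateral otocyst list, an epithelial list with a median log2 ratio of -1.10. Of its 7 genes, 4 were past 2-fold in the negative library and none in the positive library. The labels call the sorted cells epithelial, and the epithelial genes Epcam and Cdh1 were present in both libraries, at 538.6 and 315.4 in the negative and 1610 and 777.5 in the positive library. In the negative library the markers of non-epithelial cells were also bright. The counts of each list stand beside 7.63% of all genes past 2-fold in the negative and 2.9% in the positive library. For neural crest and glia, 6 of 9 measured genes were past 2-fold in the negative library and 2 in the positive library. The summed signals of the list were 2261 in the negative and 2416 in the positive library. Most of the positive-library sum came from Sox10 and Erbb3. Foxd3, which defines crest cells together with Sox10, had 48.6 in the negative and 5.0 in the positive library, whereas Sox10 had 403.7 and 889.3. Erbb3, a neuregulin receptor gene of crest and glia named after its values were seen, had 511.1 and 1405. For melanoblasts, 3 of 5 were higher in the negative and 1 in the positive library, with sums of 419.2 and 321.1, and Mitf, their defining transcription factor gene, had 87.4 against 24.0. All melanoblast genes, and Sox10 and Pax3 of the crest list, are also among the genes counted above as acting with Edn3 and Ednrb. The counts of these lists are thus not independent.

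For mesenchyme all 10 genes were past 2-fold in the negative library, with summed signals of 6195 and 347.9, and its defining genes Prrx1 and Twist1 had 479.9 and 266.5 against 17.5 and 11.5. For endothelium, which expresses Ednrb in many organs, 9 of 10 were higher, with sums of 823.4 and 127.4, and Kdr had 85.4 against 17.5, Pecam1 34.1 against 0.8 and Cdh5 47.8 against 1.3. For hindbrain 6 of 7 were higher, with sums of 2426 and 68.2, and Zic1 had 1523 against 14.2. Fabp7, at 602 against 15.2, is counted in both the hindbrain list and the crest and glia list. For leukocytes all 7 were higher, with sums of 1113 and 72.9, and for erythroid cells all 7, with sums of 14226 and 2496. Csf1r, at 607.1 in the negative library, made up most of the leukocyte sum there. Csf1r and Laptm5 each also had a probe set within 2-fold, at -0.59 and -0.87 on the log2 scale. The median log2 ratios were -2.22 for neural crest and glia, -1.86 for melanoblasts, -2.24 for endothelium, -2.48 for hindbrain, -2.79 for leukocytes and -5.16 for erythroid cells. No gene of these lists was listed at 0 in either library. The part of these cells, and that of dorsolateral otocyst cells, in the Ednrb and Edn3 signals was not tested. In pooled RNA, fewer cells of a type and less RNA per cell cannot be told apart.

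Markers of otic epithelium and of the ventral otocyst lay on the side of Ecel1. Among all genes, 2.9% were past 2-fold in the positive and 7.63% in the negative library. For otic epithelium 10 of 13 measured genes were past 2-fold in the positive library and none in the negative library, with summed signals of 10286 and 5079. For the ventral otocyst all 7 were higher in the positive library, with sums of 1219 and 308.8, among them Otx1, Otx2 and Lfng. For the dorsolateral otocyst 4 of 7 were past 2-fold in the negative library and none in the positive library, with sums of 769.8 in the positive and 1204 in the negative library. Epcam, Neurog1, Bdnf and Msx1 of these lists each also had a probe set within 2-fold, at 0.50, 0.46, 0.88 and -0.82 on the log2 scale. The dorsomedial list was split, with 2 of 5 higher in the positive and 1 in the negative library and sums of 805.9 and 293.1. Gbx2, at 580.3 in the positive and 79.1 in the negative library, made up most of the positive-library sum. Wnt3a and Wnt1 went the other way, both under the floor in the positive library. Wnt3a had 9.5 in the positive and 26.6 in the negative library, at least 2.56-fold higher in the latter. Wnt1 had 3.1 against 16.8, at least 1.62-fold higher in the negative library. The dorsolateral and dorsomedial medians were -1.10 and -0.22 on the log2 scale. The part of otic epithelial content in the Ecel1 ratio was not tested.

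Under other processing the direction of Ednrb and Edn3 was kept. Their log2 ratios ranged from -4.85 to -2.78 for Ednrb and from -3.26 to -1.10 for Edn3 over 10 ways of processing, the one reported included. The value of -1.10 is a bound, since the floor at the 60th percentile lies above the positive-library signal of Edn3. The log2 ratio of Ecel1 ranged from -0.08 to 1.48.

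**Figure D4:**
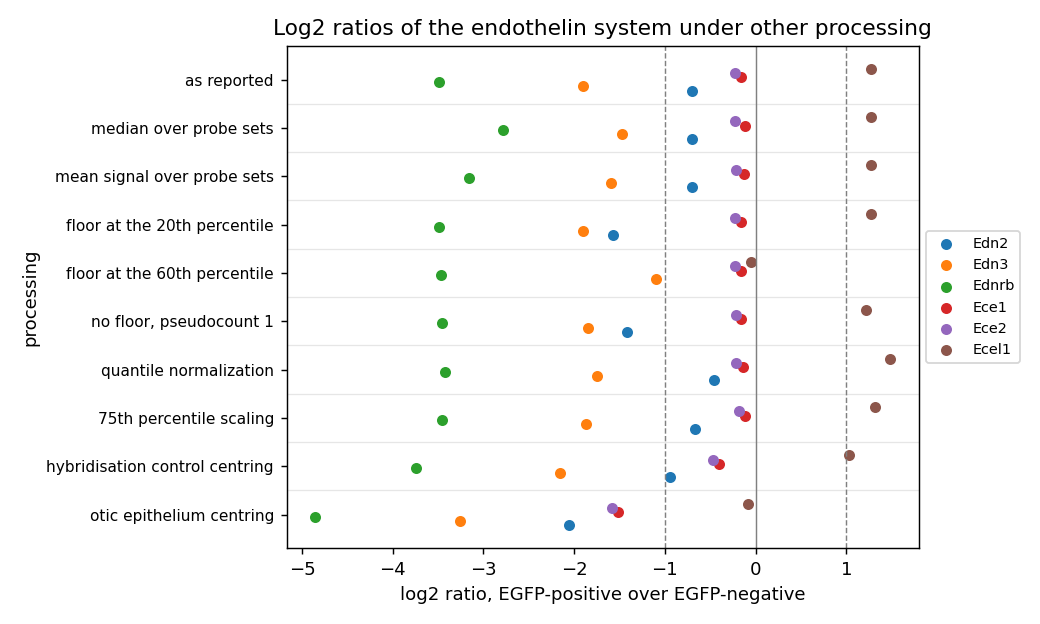
Log2 ratio of EGFP-positive over EGFP-negative signal (x axis) of the 6 endothelin genes (colours) under each way of processing (y axis), with dashed lines at 2-fold. Ednrb and Edn3 stay left of -1 in each, Ece1 and Ece2 leave the range within 2-fold when the arrays are centred on otic epithelial genes, and Ecel1 lies near 0 under that centring and, as a lower bound, with the floor at the 60th percentile. Edn2 passes -1 under that centring, with the floor at the 20th percentile and with no floor, and has no point where both its signals were under the floor.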

How the data were processed

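Total RNA of 1 EGFP-positive and 1 EGFP-negative sample was labelled and hybridised to 1 Affymetrix array each, from 1 µg of RNA per the labels' protocols. The authors deposited signal intensities for 45101 probe sets, made with MAS5 5.0 per the submitters' processing notes. The mean after trimming 2% at each end was 100.0 on both arrays, and the median signal was 20.6 in the EGFP-negative and 17.6 in the EGFP-positive library.

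Of the probe sets, 34958 named 1 gene, 932 several and 9211 were unnamed here. Symbols were updated by gene identifier through the GRCm38.p6 RefSeq gene table. Promoter sequences are RefSeq's for GRCm38.p6 and matched 8 of the 8 genes by symbol. Signals were raised to their array's floor, the brightest probe set stood for a gene, and log2 ratios were computed with Python 3.11.15, numpy 2.4.6 and pandas 2.3.3. The calling procedure was tested on simulated data. Bounds entered medians at their bound. Some genes of the lists were not analysed here, and some belong to several lists. Named were all members, the 4 genes with the largest ratio of each pathway list and, for most cell type lists, some of the first genes. Fabp7 and the genes flagged as named after their values were seen lie outside this rule. A planned search for the genes with the most similar signals is not reported, because signals of different probe sets are not comparable. The members, the gene lists and the floor were chosen with earlier results of these data known. The number of arrays limits the precision. Alternatives changed the floor, scaling, probe set rule or fold limit.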

Additional observations from a re-analysis of the deposited data

How the results depend on the processing

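No paired analysis was possible because each population has 1 array, and no replicate could be left out. As reported, 2 members were past 2-fold in the negative library and 1 in the positive library. Lowering the floor to the 20th percentile raised the first count to 4, Edn1 (as a bound) and Edn2 being added, while 11.8% of all genes were past 2-fold in that direction. Centring the arrays on otic epithelial genes raised it to 5. That centring shifted the median of all genes by -1.36 and put 84.4% of them past 2-fold in the negative library. Centring on 12 hybridisation control probe sets (those of bioB were under the floor and not used) shifted it by -0.25. Relative to the median of all genes, Ednrb stood at -3.49 under the otic centring and at -3.50 under the control centring, and Ecel1 at 1.28 and 1.27. The second count fell to 0 under a floor at the 60th percentile, under the otic centring and under a 3-fold limit, where 2.31%, 0.142% and 0.778% of all genes were past the limit in that direction. The log2 ratio of Ecel1 was -0.0469 with that floor and -0.084 with that centring against 1.28 as reported. The first is a lower bound, since only the signal of the negative library was raised to the floor, and the second follows from a shift that moves all genes alike. The first count was 3 with no floor and 1 added to each signal, where 9.82% of all genes were past 2-fold in that direction. It was also 3 under a 1.5-fold limit, which 14.5% of all genes passed. In the other alternatives it was 2, while 3.67% to 10.8% of all genes were past the limit. The second count was 1 wherever it did not fall to 0, while 1.68% to 7.84% of all genes were past the limit in its direction. The Ednrb ratio was -2.78 as the median and -3.16 as the mean signal over probe sets. Signals near the floor limit what can be said of Edn1, Edn2 and Ecel1.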
